A study of Mus musculus with 2 samples.

Results

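The genes described here are those of the proteasome, the protease that degrades ubiquitin-tagged proteins. A gene was included when its whole symbol was Psm followed by 1 of the letters a to g and a number, with or without the ending "ip", and when it had a protein-coding transcript. The rule gave 49 of the 55536 annotated genes, all among the 22015 nuclear protein-coding genes. Of these, 48 belong to the proteasome, its activators, its inhibitor or its assembly factors. The remaining one, Psmc3ip, shares the symbol pattern but encodes a cofactor of meiotic recombination named for its binding to Psmc3.

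Total RNA was sequenced from the left cerebral cortex of B6CASTF1/J mice, which are first-generation hybrids between the strains C57BL/6J and CAST/EiJ. The mice were male and 10 days old. The design has 1 group of 2 libraries, each made from 300 ng of RNA to which ERCC spike-ins (a mix of synthetic control RNAs) had been added. The labels call the libraries biological replicates 1 and 2 and give the animals separate numbers, while a single donor identifier stands on both. The libraries were read here as 2 animals. No treated, mutant or control group exists, so values are given per library or as mean ± SD (n = 2), and no p-value is given.

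The proteasome is a barrel with gated ends. Its core particle, called 20S, stacks outer rings of alpha subunits on inner rings of beta subunits, and only some of the beta subunits carry an active site, a threonine freed when the propeptide is cut off. The regulatory particle, called 19S, has a base with a ring of ATPases that unfold substrates and a lid that holds the deubiquitinase, and a core with regulatory particles forms the 26S proteasome. Interferon makes cells replace the standard catalytic subunits Psmb6, Psmb7 and Psmb5 by Psmb9, Psmb10 and Psmb8, which gives the immunoproteasome and changes the peptides offered to T cells. In neurons, proteasomes turn over synaptic and misfolded proteins.

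The 6 catalytic genes are related in sequence, which bears on how reads are assigned between them. Their coding sequences are shown from the codon of the catalytic threonine, in capitals, for 45 bases (GENCODE M21 transcripts on GRCm38, 5′ to 3′), each immunoproteasome gene above the standard gene whose position it takes.
Psmb9 (immuno, beta1): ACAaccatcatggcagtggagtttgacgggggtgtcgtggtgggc
Psmb6 (standard, beta1): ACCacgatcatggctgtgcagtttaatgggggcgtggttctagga
Psmb10 (immuno, beta2): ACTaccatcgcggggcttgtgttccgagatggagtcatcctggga
Psmb7 (standard, beta2): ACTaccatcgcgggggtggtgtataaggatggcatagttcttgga
Psmb8 (immuno, beta5): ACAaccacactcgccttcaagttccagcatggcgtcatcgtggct
Psmb5 (standard, beta5): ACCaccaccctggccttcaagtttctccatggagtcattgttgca

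From that codon to the stop, Psmb9 matched Psmb6 at 62.9% of aligned positions, Psmb10 matched Psmb7 at 62.0% and Psmb8 matched Psmb5 at 68.5%. The 12 other pairings of these genes matched at 44.9% to 51.1%. The longest run of identical bases was 11 bases for Psmb9 and Psmb6, 15 for Psmb10 and Psmb7, and 18 for Psmb8 and Psmb5, so stretches that cannot be told apart were short.

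The libraries held 31254528 (replicate 1) and 30218308 (replicate 2) expected counts. Levels are TPM, a measure of transcript abundance per length with the same total in every library. For a transcript with an effective length of 1 kb, 1 TPM was worth 20.5 counts in replicate 1 and 19.7 counts in replicate 2. Markers of the tissue were present: all 5 glutamatergic neuron genes and all 7 microglial genes reached 1 TPM in both libraries, against 0 of 5 lymphocyte, 0 of 4 meiotic germ cell and 0 of 2 thymic epithelial genes. The libraries differed in markers of neighbouring tissue. Ttr of the choroid plexus had 7.35 TPM in replicate 1 and 303.5 TPM in replicate 2, and the 3 choroid plexus genes summed to 8.13 TPM and 309.3 TPM. The 4 striatal genes summed to 105.8 TPM and 68.8 TPM, and the 3 erythroid genes to 805 TPM and 557 TPM. The part of such differences in the levels below was not tested. In bulk tissue, fewer cells of a type and less RNA per cell cannot be told apart.

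A gene was called detected when neither library had it under 1 TPM. Of the 49 genes, 45 were detected, a share of 91.8%, beside 59.6 percent of all nuclear protein-coding genes. Together the 49 summed to 2612 TPM in replicate 1 and 2519 TPM in replicate 2, and took 0.224% and 0.217% of the counts. Among detected protein-coding genes, whose median was 16.3 TPM, the median detected member stood at the 85.4th percentile. There were 29 members above the 80th percentile, and 6 below the median. Those 6 were the chaperones Psmg1, Psmg2, Psmg3, Psmg4 and Psmd10, and Psmc3ip. The 31 standard subunits of the 26S particle ranged from 28.5 ± 3.1 TPM for Psma2 to 136.8 ± 10.2 TPM for Psmb4. The 7 assembly chaperones among the members lay between 7.25 ± 0.46 TPM for Psmd10 and 17.5 ± 0.85 TPM for Psmd9, so none of these reached the lowest standard subunit. The 4 genes that were not detected were Psmb8, Psmb9, Psma8 and Psmb11, 2 of the immunoproteasome genes and both tissue-specific ones. Psmb8 lay at the threshold: it passed with 1.14 and 1.41 TPM in a second quantification, which mapped reads to an index, and with posterior mean TPM of 1.25 and 1.56. Unless stated otherwise, levels and their order are those of the first quantification, made from alignments. The median of the 49 genes was 56.0 ± 1.1 TPM in the first and 90.4 ± 1.8 TPM in the second, so 1 TPM was a lower bar in the second. There the chaperone Psmd5, with 37.2 ± 6.6 TPM, stood above the lowest standard subunit, Psma2, with 33.6 ± 3.4 TPM, and their ranges overlapped.

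**Figure D1:**
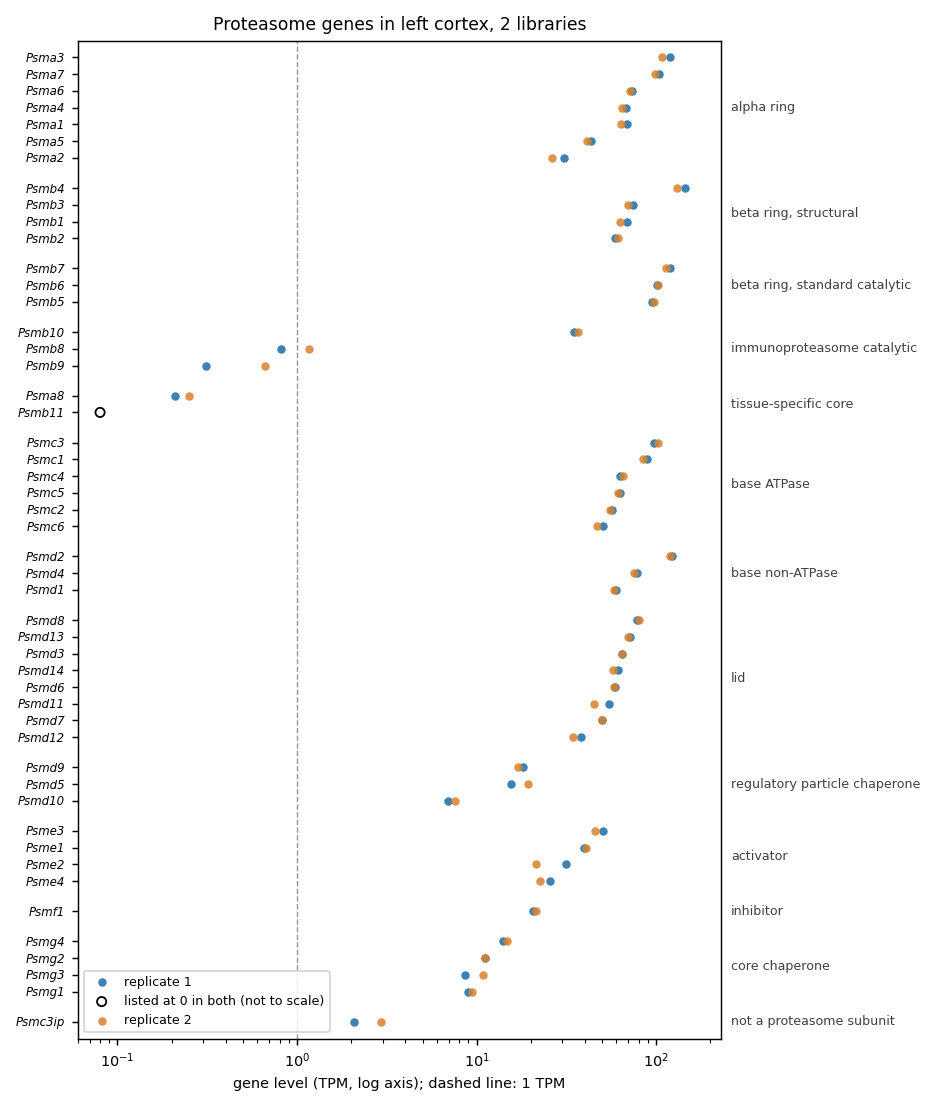
Level of each of the 49 genes (TPM, log axis) in replicate 1 (blue) and replicate 2 (orange), grouped by role; the dashed line is 1 TPM and the open circle marks Psmb11, listed at 0 in both. Standard core, base and lid subunits sit between 26.3 and 144 TPM, chaperones between 6.92 and 19.3 TPM, and Psmb8, Psmb9, Psma8 and Psmb11 at 1.17 TPM or less.

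In the alpha ring, whose subunits form the gate and the docking surface for regulators, the 7 genes had a median of 68.7 TPM in replicate 1 and 64.7 TPM in replicate 2. Psma3 (alpha7) led with 119 and 108.2 TPM, followed by Psma7 (alpha4) with 103 and 98.9 TPM. Psma6 (alpha1) had 73.6 and 71.0 TPM, Psma4 (alpha3) 68.0 and 64.7 TPM, and Psma1 (alpha6) 68.7 and 64.0 TPM. These 3 lay within 1.2-fold of each other, and the ranges of Psma4 and Psma1 overlapped. Psma5 (alpha5) had 43.1 and 41.1 TPM. Psma2 (alpha2) was lowest of the standard core with 30.8 and 26.3 TPM, although its expected counts, 1469 and 1296, were close to those of Psma1, 1519 and 1351. The difference lay in the deposited effective length, 2327 and 2500 bases for Psma2 and 1077 and 1073 bases for Psma1: most of Psma2, 74.4%, was assigned to Psma2-201, a coding transcript of 2911 bases.

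In the beta ring, Psmb4 (beta7), which carries no active site, had 144 and 129.6 TPM and was the highest of all 49 genes, while Psma3 was highest in the second quantification. It lies at chr3:94884093-94886961 on the minus strand (GRCm38). The other non-catalytic subunits, Psmb3 (beta3) with 74.2 and 69.3 TPM, Psmb1 (beta6) with 69.0 and 62.6 TPM and Psmb2 (beta4) with 58.9 and 60.8 TPM, lay within 1.5-fold of the core median of 72.0 ± 2.6 TPM. The standard catalytic subunits were all above that median. In the second quantification Psmb5 was below the core median in replicate 1, with 115.1 TPM beside 123.0 TPM. Psmb7 (beta2, trypsin-like activity) had 119.4 and 112.6 TPM. Psmb6 (beta1, caspase-like activity) had 101.5 and 102.2 TPM. Psmb5 (beta5, chymotrypsin-like activity and the main target of proteasome inhibitor drugs) had 94.5 and 97.5 TPM. The ranges of these 3 did not overlap.

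The 14 standard core subunits stand in equal number in the particle, while their RNA levels spanned 4.80 ± 0.17-fold from Psma2 to Psmb4, and 9 of the 14 lay within 1.5-fold of their median. Both ends of this span carry limits. Psma2 had effective lengths of 2327 and 2500 bases and is overlapped by AW209491 on the same strand, so its level is uncertain. Psmb4 held 51.8 ± 3.5% of its level in its coding transcript. The alpha ring alone spanned 3.99 ± 0.17-fold and the 7 standard beta genes 2.29 ± 0.22-fold. The span of the whole core depended on how reads were assigned to transcripts. In the second quantification it was 6.71 ± 0.38-fold, with Psma3 highest and Psma2 lowest. Over protein-coding transcripts alone it was 4.06 ± 0.28-fold in the first quantification, with Psmb7 highest, and 10.4 ± 0.52-fold in the second, with Psma3 lowest.

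The immunoproteasome genes were read against the standard genes they replace. Psmb8 had 0.81 TPM in replicate 1 and 1.17 TPM in replicate 2, from 15 and 21 counts, against 94.5 and 97.5 TPM for Psmb5. Psmb8 thus stood at 1.03 ± 0.24% of Psmb5. Psmb9 had 0.31 and 0.66 TPM, from 4 and 11 counts, against 101.5 and 102.2 TPM for Psmb6. It stood at 0.475 ± 0.24% of Psmb6. With so few counts, the ratio of the libraries for Psmb9 was 2.84 in CPM (counts scaled to the library total, replicate 2 over replicate 1), with an exact 95% interval of 0.843 to 12.2 that covers counting error only. In both pairs the ranges over the libraries were far apart. Psmb9 (chr17:34181987-34187764, minus strand) and Psmb8 (chr17:34197721-34201454, plus strand) lie 9.96 kb apart. Tap1, which feeds peptides to class I molecules, overlaps 212 bases of Psmb9 on the other strand and had 1.28 and 1.53 TPM.

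Psmb10 differed from its partners. Its gene level was 34.8 and 36.7 TPM, from 460 and 452 counts, or 30.9 ± 2.5% of Psmb7. Psmb7 had 119.4 and 112.6 TPM, from 2623 and 2370 counts. The deposited effective length was 644 and 625 bases for Psmb10, and 1070 and 1068 bases for Psmb7. Psmb10 was therefore a smaller part of Psmb7 in counts than in TPM. The TPM of Psmb10 was 25.6 ± 7.8 times the summed level of Psmb8 and Psmb9. Psmb10 therefore made up most of the summed immunoproteasome TPM, which was 11.4% and 12.3% of the summed standard TPM. The mean ratio was 0.119 ± 0.0068. Without Psmb10 and Psmb7, the ratio of Psmb8 and Psmb9 to Psmb5 and Psmb6 was 0.744 ± 0.24%.

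**Figure D2:**
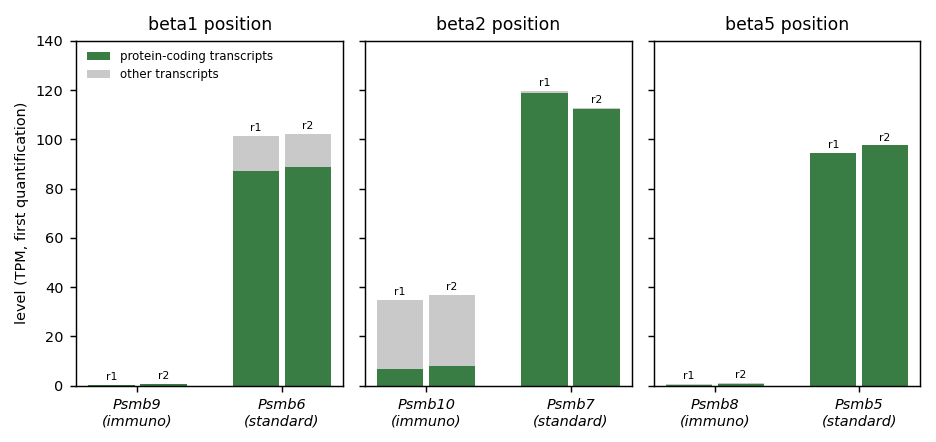
TPM of the immunoproteasome gene (left) and the standard gene (right) at each catalytic position, r1 and r2 being the 2 libraries, split into protein-coding transcripts (green) and all other transcripts (grey). Psmb9 and Psmb8 are at 1.17 TPM or less, while Psmb10 reaches 34.8 and 36.7 TPM, of which 6.91 and 7.89 TPM are green.

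Most of the Psmb10 level was assigned to transcripts that are not annotated as coding. The gene lies at chr8:105935735-105938444 on the minus strand (GRCm38) and has 7 annotated transcripts. Its 1 protein-coding transcript, Psmb10-201, held 6.91 TPM in replicate 1 and 7.89 TPM in replicate 2, or 20.7 ± 1.1% of the gene. Psmb10-205, annotated as a retained intron, held 23.7 and 11.4 TPM. Psmb10-203, annotated as a processed transcript, held 0 and 10.9 TPM, so it was high in the library where Psmb10-205 was low. Both directions turned in the second quantification, with 15.6 and 22.9 TPM for Psmb10-205 and 3.01 and 0 TPM for Psmb10-203. Psmb10-206 held 2.71 and 3.25 TPM and Psmb10-207 held 0.92 and 3.35 TPM, both annotated as retained introns.

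These transcripts share most of their bases with the coding one. Of the 554 bases of Psmb10-205, 494 lie in Psmb10-201 and 60 do not, and of the 426 bases of Psmb10-203, 378 do and 48 do not. Few bases of either transcript lie outside Psmb10-201, while most of the 1311 bases of Psmb10-201 lie outside each of them. The difference is shown at exon 5 of Psmb10-201 (chr8:105936866-105936981, minus strand), whose first 30 bases are in capitals. The lower-case bases are those that come before it in each transcript: intron in Psmb10-205, and exon 4 in Psmb10-201.
Psmb10-205: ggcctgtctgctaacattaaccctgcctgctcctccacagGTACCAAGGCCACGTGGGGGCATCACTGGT
Psmb10-201: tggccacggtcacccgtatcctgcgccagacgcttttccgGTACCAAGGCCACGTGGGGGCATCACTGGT

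In the second quantification Psmb10-201 held 30.1% of the gene and Psmb10-205 held 32.8%. When only protein-coding transcripts were counted, the summed immunoproteasome level was 0.0280 ± 0.0038 of the summed standard level in the first quantification and 0.0442 ± 0.0003 in the second. Psmb10 then stood at 6.43 ± 0.86% and 9.37 ± 0.06% of Psmb7. It remained above Psmb8 and Psmb9 together in both, by 8.04 ± 2.6 times and 15.1 ± 7.1 times. The antisense gene Gm16156, which spans all of Psmb10, had 0 and 0.08 TPM. Whether strand was used in counting is not stated in the sources at hand.

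**Figure D3:**
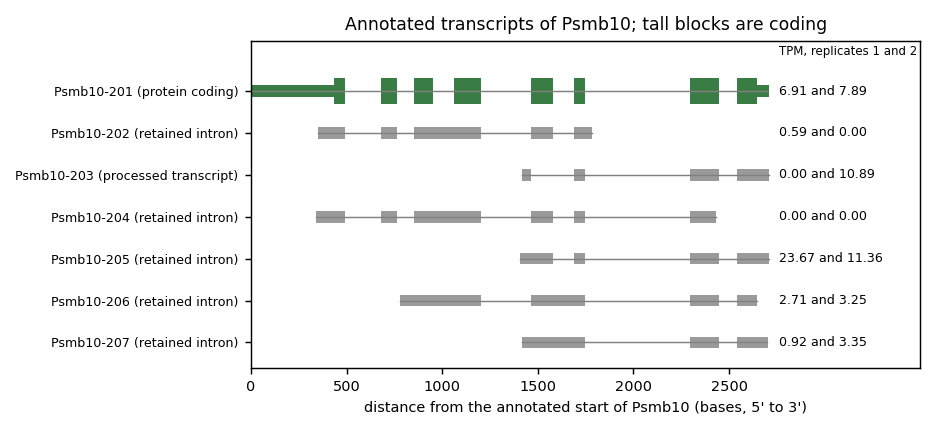
Annotated transcripts of Psmb10 drawn to scale by distance from the start of the gene in bases, with coding exons as tall green blocks, other exons as thin blocks and the TPM of each transcript in replicates 1 and 2 at the right. Psmb10-203, Psmb10-205 and Psmb10-207 cover only the last exons of Psmb10-201, and Psmb10-205 carries 23.7 and 11.4 TPM.

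The genes that mark or accompany interferon and antigen processing were mostly low. Of 10 such genes 9 were detected, and their median was 5.13 ± 0.06 TPM. B2m, the light chain of class I molecules, was highest with 32.4 ± 1.8 TPM. Nlrc5, a transactivator of class I genes that also acts on Psmb9, was lowest with 0.265 ± 0.13 TPM, and Irf1 had 1.10 ± 0.08 TPM. Tap2 had 1.46 ± 0.08 TPM. The 7 microglial markers summed to 142.8 TPM and 142.9 TPM, while the 5 lymphocyte markers summed to 0.65 and 0.51 TPM.

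Both core subunits that are known from single tissues were under the detection threshold. Psma8, the testis form that takes the place of Psma7 in spermatocytes, had 0.21 and 0.25 TPM, from 3 and 8 counts, against 103 and 98.9 TPM for Psma7. Psmb11, the beta5 form of thymic cortical epithelium, was listed at 0 in both libraries, where 3 counts would be 0.063 and 0.066 TPM. In the second quantification it had 0.445 and 0.215 TPM. The markers of the matching tissues were low too, but not all at 0. The germ cell gene Sycp1 and the thymic gene Prss16 were at 0 in both libraries. The other germ cell genes, Sycp3 with 0.70 ± 0.13 TPM, Dmc1 with 0.65 TPM and Ddx4 with 0.56 ± 0.15 TPM, stood above Psma8. The thymic gene Foxn1 had 0.025 ± 0.007 TPM. Psmb11 (chr14:54621433-54629556, plus strand) begins 3.41 kb from Psmb5 (chr14:54614119-54618022, minus strand), the closest pair among the 49 genes, so the lowest member lies next to one of the highest.

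In the base, the 6 ATPases unfold substrates and feed them into the core. Psmc3 (Rpt5 in yeast) had 96.8 and 102.2 TPM and Psmc1 (Rpt2) had 89.3 and 84.5 TPM. Psmc4 (Rpt3) followed with 63.1 and 65.6 TPM, Psmc5 (Rpt6) with 62.4 and 61.4 TPM and Psmc2 (Rpt1) with 56.7 and 55.2 TPM. Psmc6 (Rpt4) was lowest with 50.6 and 46.5 TPM. In the second quantification Psmc6 had 127.1 and 117.8 TPM. There Psmc5 had the lowest mean, while Psmc4 was lower than Psmc5 in replicate 1. The ring spanned 2.06 ± 0.20-fold, and 5 of its 6 genes lay within 1.5-fold of their median, 63.1 ± 0.51 TPM. The base scaffold Psmd2 (Rpn1 in yeast), which holds shuttle factors and Usp14, had 122.6 and 119.6 TPM, the second highest mean of the 49 genes. Its rank was lower in the second quantification. The scaffold Psmd1 (Rpn2) had 59.3 and 58.1 TPM. The ubiquitin receptor Psmd4 (Rpn10) had 78.1 and 75.6 TPM, with 57.9 ± 4.7% on Psmd4-202 and 22.1 ± 3.7% on Psmd4-201, both coding.

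The 8 lid genes spanned 2.18 ± 0.21-fold in TPM, with 7 within 1.5-fold of their median of 59.0 ± 1.7 TPM. Psmd14 (Rpn11 in yeast), the deubiquitinase that cuts ubiquitin chains off substrates, had 61.3 and 57.5 TPM. Its partner Psmd7 (Rpn8) had 49.7 and 49.6 TPM. The highest was Psmd8 (Rpn12) with 77.8 and 80.1 TPM, followed by Psmd13 (Rpn9) with 71.2 and 69.7 TPM. Psmd3 (Rpn3) had 64.3 and 64.1 TPM, Psmd6 (Rpn7) 59.0 and 58.1 TPM and Psmd11 (Rpn6) 54.8 and 45.2 TPM. Psmd12 (Rpn5) was lowest with 38.3 and 34.5 TPM. The 3 further subunits whose symbols fall outside the rule lay below the lid median: the ubiquitin receptor Adrm1 had 53.9 ± 2.6 TPM, the small lid subunit Sem1 24.5 ± 0.93 TPM and the deubiquitinase Uchl5 15.3 ± 0.25 TPM.

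Among the activators, which cap the core without ATPases, Psme3 (PA28 gamma, nuclear) had 50.5 and 45.6 TPM. Psme4 (PA200, nuclear) had 25.8 and 22.4 TPM. Psme1 and Psme2 form PA28 alpha and beta, a ring that interferon induces, and lie 5.91 kb apart on chromosome 14. Psme1 had 39.6 and 40.5 TPM, while Psme2 had 31.3 and 21.4 TPM. Psme1 exceeded Psme2 by 1.26-fold in replicate 1 and 1.89-fold in replicate 2, and by 2.30 ± 0.13-fold over protein-coding transcripts. Both stood above Psmb8 and Psmb9 in each library. Psmf1 (PI31), which inhibits the core in vitro, had 20.5 and 21.5 TPM.

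The chaperones assemble particles and leave them. For the core, Psmg1 with 8.90 and 9.41 TPM and Psmg2 with 11.2 and 11.1 TPM form the pair that starts the alpha ring, and Psmg3 with 8.60 and 10.8 TPM and Psmg4 with 14.01 and 14.7 TPM form the second pair. Pomp, which guides the beta ring and is degraded in the finished core, was far above them with 67.1 ± 3.6 TPM, close to the subunits. For the ATPase ring, Psmd9 had 18.1 and 16.9 TPM, Psmd5 had 15.5 and 19.3 TPM, and Psmd10 (gankyrin) had 6.92 and 7.57 TPM. The 7 chaperones had a median of 11.1 ± 0.04 TPM, beside 66.7 ± 2.8 TPM for the 31 standard 26S subunits. Psmc3ip had 2.07 and 2.92 TPM, from 44 and 53 counts, and held 29.3 ± 16% of it in its coding transcript.

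In the order of mean TPM, 22 of the 48 neighbouring pairs had ranges over the 2 libraries that overlapped, so their order is not settled by these data. Examples are Psma4 and Psma1, and Psmd9 and Psmd5. The other 26 pairs are not all settled either. In the second quantification Psmb7, with 192.3 and 183.7 TPM, stood above Psmd2, with 163.5 and 163.4 TPM. The SD was under 5% of the mean for 30 of the 45 detected members, with a median of 3.82%.

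Transcript annotation split the members. Over all detected members, protein-coding transcripts held 84.0 ± 0.91% of the TPM in the first quantification, retained introns 10.1 ± 0.62%, processed transcripts 3.19 ± 0.34% and transcripts marked for nonsense-mediated decay 2.67 ± 0.63%. In the second quantification the coding share was 74.1 ± 0.49% and that of nonsense-mediated decay 8.46 ± 0.39%. The median member held 90.8% in coding transcripts, beside 89.3% for all detected protein-coding genes. In the second quantification it held 79.5%, beside 87.1%. Less than 50% of the level was coding in 2 members, Psmb10 and Psmc3ip, beside 9.61 percent of all detected protein-coding genes. In the second quantification 6 members were below that line, Psma3, Psmc3ip, Psmc6, Psmb10, Psmc4 and Psmd13, beside 12.1 percent.

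Several subunits with high levels carried large non-coding shares. Psmb4, the highest of the 49, held 51.8 ± 3.5% in its coding transcript Psmb4-201, and 34.4% and 12.3% in the retained-intron transcripts Psmb4-202 and Psmb4-203. Its coding level was 70.7 ± 0.47 TPM, beside a median coding level of 68.3 ± 3.4 TPM over the 14 core genes. Psmd13 held 56.6 ± 0.29% in coding transcripts. A processed pseudogene inside it on the same strand, Gm15542, had 23.4 and 22.9 TPM, so the level of Psmd13 is uncertain. Psmc6 held 62.4 ± 5.4% in coding transcripts in the first quantification and 26.5% in the second. Psma3 held 60.1 ± 1.5% and 7.99%: the first quantification gave 37.9% to coding Psma3-204, and the second gave that transcript 0.00186% and gave 43.9% to Psma3-201 and 35.5% to Psma3-207, both marked for nonsense-mediated decay. At the other end, Psmb5, Psma5, Psma2, Psmd12, Psmd10 and Psmg4 were at 100% coding in both.

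Both quantifications named the same most abundant transcript for 37 of the 45 detected members, beside 75.9 percent of all detected protein-coding genes with more than 1 transcript. It differed for Psma3, Psmb1, Psmc6, Psmd8, Psmd9, Psmd10, Psmd13 and Psme2. The most abundant transcript was not protein-coding for 2 members, Psmb10 and Psmc3ip, in the first quantification, beside 7.72 percent of those genes. In the second it was not for 5, Psma3, Psmc6, Psmd13, Psmb10 and Psmc3ip, beside 9.77 percent.

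**Figure D4:**
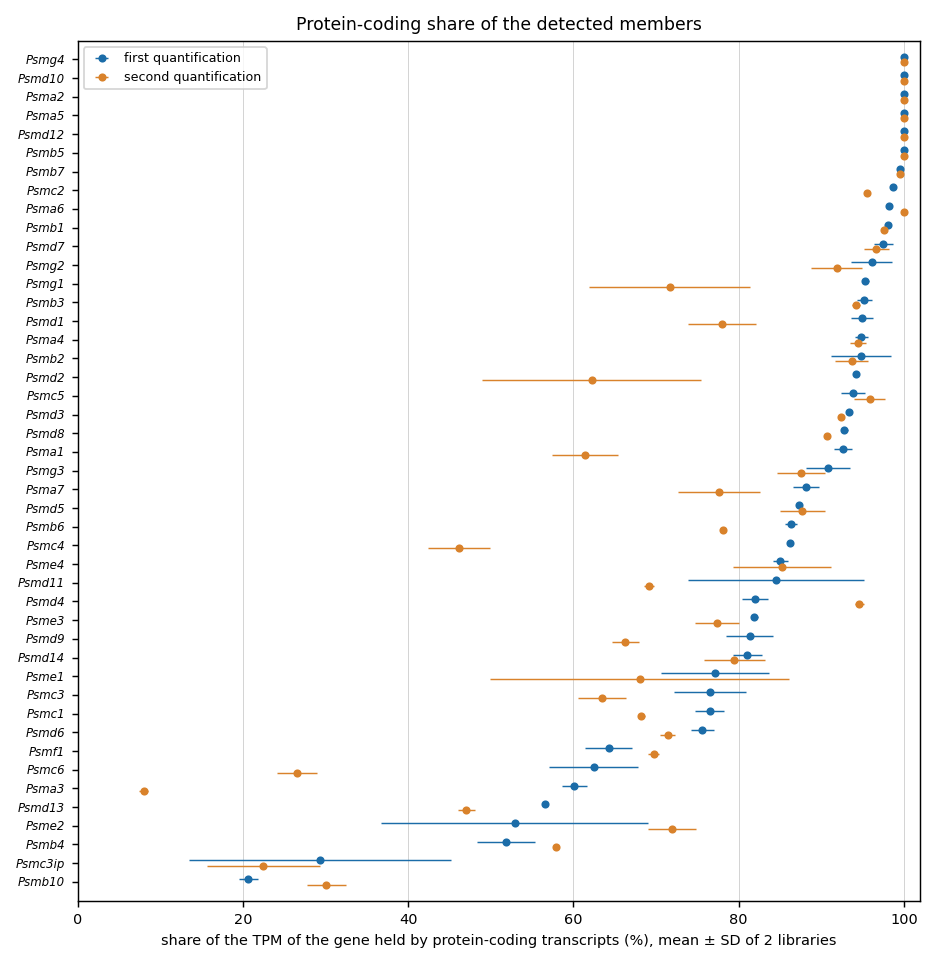
Share of the TPM of each detected member held by protein-coding transcripts (%), as mean and SD over both libraries, in the first (blue) and second (orange) quantification. Psmb10 and Psmc3ip are lowest in the first, and Psma3 moves furthest between them, with 60.1% in the first and 7.99% in the second.

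The libraries were then compared with each other for the 44 members with a mean of 100 expected counts or more, as log2 of replicate 2 over replicate 1 with 0.1 TPM added. A difference past 1.2-fold was seen for 4 members, beside 11.4 percent of the 11982 genes tested. Psmg3 at 0.33 and Psmd5 at 0.32 were higher in replicate 2, 2 of 44 beside 8.46 percent of genes. Psmd11 at -0.28 and Psme2 at -0.55 were lower, 2 of 44 beside 2.91 percent. For none of the 4 did the counts differ that far. Psmd5 had 855 and 804 counts, a CPM ratio of 0.973 (exact 95% interval 0.882 to 1.07), and an effective length of 2695 bases in replicate 1 and 2119 bases in replicate 2. Psme2 had 264 and 248 counts, a CPM ratio of 0.972 (0.814 to 1.16), and effective lengths of 410.02 and 588 bases. Its retained-intron transcript of 185 bases, Psme2-203, had 12.9 TPM in replicate 1 and 3.85 TPM in replicate 2.

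In CPM, all 44 ratios lay between 0.883 for Psmd12 and 1.11 for Psmg3, and 0 passed 1.2-fold, beside 6.04 percent of the genes tested. With scaling factors from TMM or DESeq2 applied to the counts, 0 of the 44 passed as well, and with no minimum count 7 of 49 did, beside 23.0 percent of all nuclear protein-coding genes, Psmc3ip, Psmb8 and Psmb9 being added. The members leaned lower in replicate 2: the TPM of 30 of the 44 was lower there, beside 37.2 percent of the genes tested, and the CPM of 30 was, beside 41.1 percent. In the second quantification the TPM of 27 was lower, beside 39.4 percent. The median log2 TPM ratio was -0.04 for the members and 0.04 for all genes. The exact CPM interval lay below 1 for 9 members, beside 8.67 percent of genes, and above 1 for 0 members, beside 15.6 percent. The 9 were Psma1, Psma2, Psma3, Psmb1, Psmb4, Psmb7, Psmd12, Psmd14 and Psme4. All 7 alpha ring genes were lower in replicate 2 in TPM of both quantifications and in CPM. The lean was not limited to that ring. In TPM of the first quantification, 7 of 8 lid, 3 of 3 non-ATPase base and 4 of 6 ATPase genes were lower there. So were 3 of 4 non-catalytic and 1 of 3 standard catalytic beta genes, and 25 of all 31 standard 26S subunits. With 1 library from each animal, an animal and its library cannot be told apart.

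**Figure D5:**
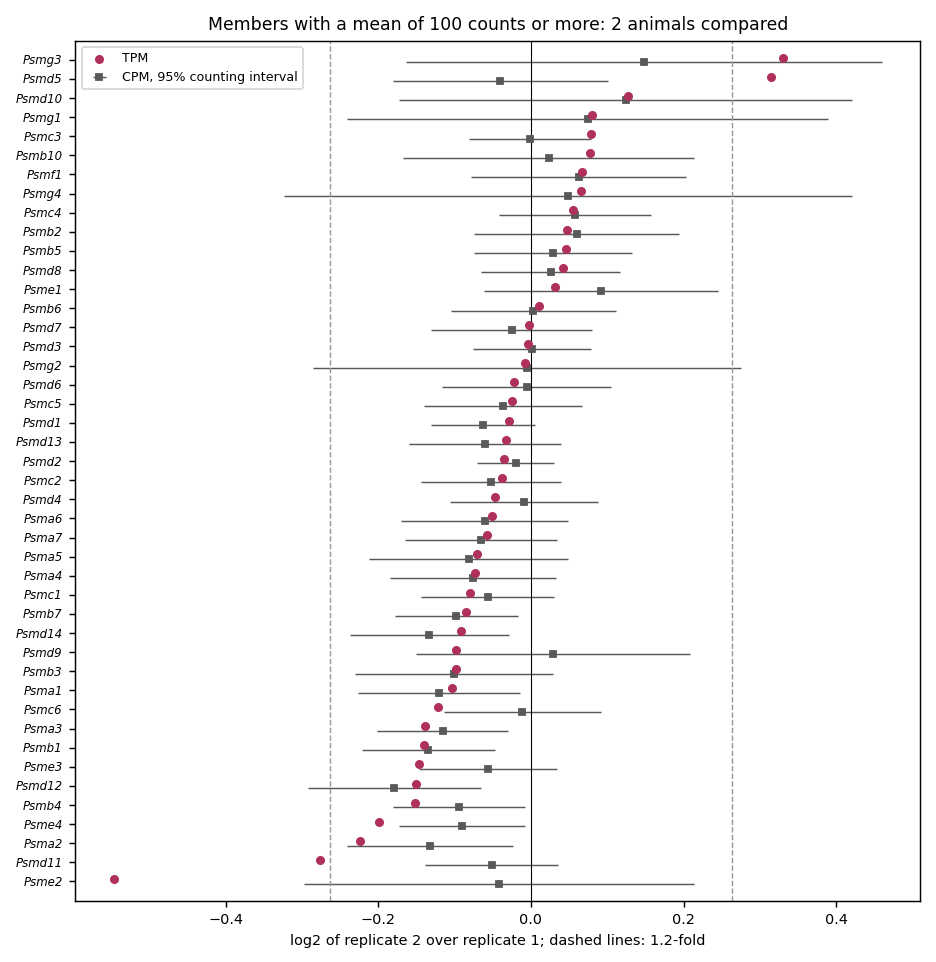
Log2 of replicate 2 over replicate 1 for the 44 members with a mean of 100 counts or more, in TPM (red circles) and in CPM with 95% counting intervals (grey squares); dashed lines mark 1.2-fold. Psme2, Psmd11, Psmd5 and Psmg3 pass the lines in TPM, and no member does in CPM.

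Genes that work with the proteasome were measured from lists of named genes, here too at the level of mean TPM. Some genes of the ubiquitin system exceeded every proteasome gene: Ubb, a polyubiquitin gene, had 848 ± 25 TPM, and the activating enzyme Uba1 had 207.4 ± 2.7 TPM. All 10 genes for shuttle factors and enzymes bound to the proteasome were detected, with a median of 60.1 ± 2.7 TPM that lies near that of the standard subunits. They included Ubqln2, a shuttle factor, at 118.4 ± 1.0 TPM, and the deubiquitinase Usp14 at 80.4 ± 3.9 TPM. Nfe2l1, a factor that raises proteasome gene transcription when activity falls, had 79.3 ± 2.0 TPM. Its relative Nfe2l2 had 4.80 ± 0.38 TPM. The enzymes that free Nfe2l1 for the nucleus were detected as well, with Vcp at 125.4 ± 0.53 TPM, Ngly1 at 14.7 ± 0.13 TPM and Ddi2 at 13.3 ± 0.25 TPM. The factors that carry finished cores into the nucleus, Ipo9 with 78.1 ± 1.9 TPM and Akirin2 with 53.1 ± 1.1 TPM, lay in the range of the subunits.

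The 49 genes lie on 16 chromosomes, with 9 on chromosome 11 and 6 each on chromosomes 2 and 14, and only the pairs Psmb5 and Psmb11, Psme1 and Psme2, and Psmb9 and Psmb8 were within 50 kb of each other. RefSeq promoters (GRCm38.p6, 300 bases around the start) were matched by symbol for 41 of the 49. They were searched on both strands for short motifs. The GC box GGGCGG was in 23 of the 41, or 56.1%, beside 38.2% of 27025 promoter genes. The core of the antioxidant response element, TGACNNNGC, which Nfe2l1 and Nfe2l2 are known to bind, was in 6, or 14.6%, beside 13.99%. These were Psmb5, Psmb6, Psmc6, Psmd9, Psmd12 and Psme4. The gamma-activated sequence TTCNNNGAA was in 3, Psmb8, Psmd2 and Psmg1, or 7.32%, beside 9.55%. The core of the interferon-stimulated response element was in 5, Psmb3, Psmd4, Psmd9, Psme1 and Psmg4, or 12.2%, beside 3.99%. CCAAT was in 15 (36.6%, beside 41.1%) and TATAAA in 4 (9.76%, beside 15.7%). Matches of the gamma-activated and interferon-stimulated motifs can share letters, but no member had both motifs. A match describes letters, not binding.

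Near-identical copies can take or lend reads. The processed copies Psmb5-ps, Psmb6-ps, Psmb6-ps2 and Psmb7-ps2 had 0 to 2 counts, beside 1379 to 2623 counts for Psmb5, Psmb6 and Psmb7. AW209491 overlaps Psma2 over 8943 bases on the same strand and had 9.42 and 8.56 TPM, so the level of Psma2 is reported as uncertain. Other members are overlapped as well. Gm21972, on the strand of Psmd1, had 42 and 17 counts. On the opposite strand, Nek6 overlaps 6571 bases of Psmb7 and had 749 and 729 counts. Slc39a13 overlaps 4579 bases of Psmc3 there and had 328 and 353 counts. The strand setting is not stated, and the effect on these levels was not tested.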

How the data were processed

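Per the labels, the libraries were total RNA-seq of left cortex. The authors deposited 3 tables per library on mm10 with GENCODE M21, per the deposited descriptions: a gene and a transcript table of a first quantification, from transcriptome alignments, with expected counts, TPM and the percent of each gene held by each transcript, per the file headers, and a transcript table of a second, from an index, with estimated counts and TPM. The programs and the strand setting of the counting are not stated in the sources at hand. The TPM total includes spike-ins and mitochondrial genes.

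Scripts in Python 3.11.15 (pandas 2.3.3, scipy 1.17.1, Biopython 1.88) read both libraries as 1 group. Every member was named with its level, and other genes only from lists. Members and lists were chosen with earlier results of these data known. Ratios between libraries used 0.1 TPM and a mean of 100 counts, and their code was tested on simulated data. CPM intervals are exact (Clopper-Pearson) on rounded expected counts. TMM (edgeR 4.0.16) and DESeq2 1.42.0 gave alternative scalings. Sequences were aligned globally. The list symbols Paaf1, AI314180 and Hrd1 matched no gene.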

Additional observations from a re-analysis of the deposited data

Results flagged for a closer look

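Psme2b, an annotated protein-coding gene whose symbol falls outside the rule and whose name marks it as a copy of Psme2, had 9 counts in replicate 1 and 2 counts in replicate 2, or 0.61 and 0.12 TPM. It drew attention because it is a signal in a gene that no comparison used, and the design has no control sample. Psme2 itself had 264 and 248 counts.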

How the results depend on the processing

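The design has 1 group of 2 libraries, so no p-value can be given. No paired analysis was possible because there is no second group. The count of detected members was 44 to 46 under every alternative run, with Psmb8 passing where it was 46, and 45 to 46 with either library left out. The ratio of immunoproteasome to standard catalytic genes, 0.119, was 0.131 in the second quantification, and 0.0280 and 0.0442 over protein-coding transcripts of the first and second, which were added after seeing the data. Leaving out a library gave 0.114 to 0.123. The span of the 14 core genes, 4.80-fold, was 6.71-fold in the second quantification, 4.06-fold and 10.4-fold over coding transcripts, and 4.68-fold to 4.92-fold with either library left out. The 4 members past 1.2-fold between libraries became 0 with TMM factors, 0 with DESeq2 size factors and 7 with no minimum count. The second quantification also gave 4, of which Psmd5 and Psmg3 were among the first 4. The cause of these shifts was not tested, except that count scaling leaves out effective lengths. The same top transcript was found for 36 to 37 members with either library left out. TPM of the 2 quantifications have different denominators, so levels of the second given beside those of the first are not on the same scale. Depth limits Psmb8, Psmb9, Psma8 and Psmb11, each at 21 counts or fewer.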
